A study of Mus musculus with 28 samples.

Results

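The BMP and TGF-beta pathway was followed in mouse hair follicle stem cells through 43 genes chosen by symbol. They comprise 11 ligands, 10 receptors, 8 Smads, 4 antagonists, 4 genes of the extracellular matrix and of ligand activation, 2 nuclear repressors and the 4 Id target genes. Of these, 42 were found in at least 1 of the 5 deposited tables, which name 18274 gene symbols in all. Bmp5, a BMP ligand, was in none. Counting tables per gene, 8 members were in 1, 11 in 2, 20 in 3 and 3 in 4.

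Hair follicle stem cells rest in the bulge of the follicle and renew it with each hair cycle. The series title asks whether ageing and a stiffer niche make bivalent promoters, those with an active and a repressive histone mark together, less accessible. RNA-seq was done on 3 samples per age, ATAC-seq of open chromatin on 4, ChIP-seq of the Polycomb mark H3K27me3 on 3, and ChIP-seq of the promoter mark H3K4me3 and of RNA polymerase II (Pol2) on 2 each. The series design calls them biological replicates, with no word on whether a sample came from 1 mouse or several. The young group was 6 months old and the old group 24 months. Both groups carry the strain label 132-C67BL/6J, no transgene or treatment is named, and all cells were freshly sorted from trypsin-treated skin as double positive for Cd34 and alpha6 integrin. In such sorted bulk samples, fewer cells of a type and a lower signal per cell cannot be told apart.

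In this pathway, BMP, TGF-beta and activin ligands bring type I and type II receptor kinases together, and the type I receptor phosphorylates receptor Smads. BMP receptors act on Smad1, Smad5 and Smad9, and TGF-beta and activin receptors on Smad2 and Smad3, and all of these join Smad4 in the nucleus. Smad6 and Smad7 are inhibitory Smads, and the Id genes are direct BMP targets. In the hair follicle, BMP signalling is known to hold stem cells quiescent, whereas TGF-beta2 and BMP antagonists such as Noggin favour their activation.

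The label of the cells was checked against marker genes. In the authors' deposited H3K4me3 table all 9 markers of follicle stem cells, among them Cd34, Krt15, Sox9 and Lhx2, had a promoter peak, and 8 of the 9 had one in the authors' deposited Pol2 table. None of the 9 had an H3K27me3 promoter peak in the authors' deposited table. Of 6 immune markers none had an H3K4me3 or Pol2 promoter peak in the authors' deposited tables. In the authors' deposited RNA table the immune marker Cd74 was called lower in old cells. The fibroblast marker Col1a2 and the stem cell marker Nfatc1 were listed there without a call. Of 6 dermal fibroblast markers 3 had an H3K4me3 promoter peak and none a Pol2 peak in the authors' deposited tables, and of 3 listed ATAC-seq peaks at these markers 2 rose with age and none fell in unscaled counts (median log2 difference, old minus young, 0.84). H3K4me3 promoter peaks were also present for 2 of 5 markers of interfollicular and differentiating epidermis, 2 of 5 of melanocytes, 2 of 3 of sebaceous gland and 1 of 3 of endothelium in the authors' deposited table. Of these 4 lists only sebaceous gland had a Pol2 promoter peak, at 1 of 3 markers, in the authors' deposited table. In unscaled ATAC-seq counts the median log2 difference was 0.757 at 2 melanocyte peaks, −0.705 at 2 epidermal peaks and −0.73 at 2 endothelial peaks. Only the 2 epidermal peaks were called, as lower. At the markers of follicle stem cells 9 peaks were listed, of which 5 fell and 1 rose (median −0.543). Of all listed ATAC-seq peaks 46.4% fell and 5.43% rose in unscaled counts. The part of other cells in the results was not tested. Counts over the listed ATAC-seq peaks summed to between 2456110 and 2773284 in the young libraries and to between 1572998 and 1946804 in the old libraries. These sums cover only peaks that the authors selected, so they are not library depths, and for RNA and ChIP-seq no depth can be read from the deposited files.

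Promoters of members are shown here for the genes on which the sections on chromatin turn: Bmp4, whose start lay in an ATAC-seq peak and an H3K27me3 domain, Bmp6 and Tgfbr1, which had the largest Pol2 falls, and the targets Id2 and Id4. Each is the run of 250 bases before the RefSeq start on GRCm38.p6, read 5′ to 3′ on the gene's strand. Capitals mark GGCGCC, a GC-rich motif bound by BMP Smads, or CAGAC, the Smad-binding element, each searched on both strands (CAGAC reads GTCTG on the other strand, and GGCGCC is its own reverse complement).
Bmp4, chr14:46390670-46390919, minus strand: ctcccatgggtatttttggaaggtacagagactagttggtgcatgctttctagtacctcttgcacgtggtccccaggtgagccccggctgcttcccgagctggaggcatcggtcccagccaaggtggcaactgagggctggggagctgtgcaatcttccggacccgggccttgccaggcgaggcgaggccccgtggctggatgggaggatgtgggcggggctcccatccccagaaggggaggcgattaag
Bmp6, chr13:38345466-38345715, plus strand: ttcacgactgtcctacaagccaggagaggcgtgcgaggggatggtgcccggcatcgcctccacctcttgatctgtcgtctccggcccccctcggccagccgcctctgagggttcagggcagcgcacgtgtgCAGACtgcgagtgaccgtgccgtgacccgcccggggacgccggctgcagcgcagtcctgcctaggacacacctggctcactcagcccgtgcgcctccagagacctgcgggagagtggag
Tgfbr1, chr4:47352972-47353221, plus strand: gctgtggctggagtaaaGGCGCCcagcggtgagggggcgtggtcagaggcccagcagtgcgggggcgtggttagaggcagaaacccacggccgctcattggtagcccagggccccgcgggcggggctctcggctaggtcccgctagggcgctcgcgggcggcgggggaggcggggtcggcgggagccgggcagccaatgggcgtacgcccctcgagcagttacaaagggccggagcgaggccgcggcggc
Id2, chr12:25096093-25096342, minus strand: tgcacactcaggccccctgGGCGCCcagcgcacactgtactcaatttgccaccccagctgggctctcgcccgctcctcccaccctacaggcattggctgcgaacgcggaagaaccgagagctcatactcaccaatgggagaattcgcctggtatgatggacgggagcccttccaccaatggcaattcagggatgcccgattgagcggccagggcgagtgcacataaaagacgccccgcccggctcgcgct
Id4, chr13:48260866-48261115, plus strand: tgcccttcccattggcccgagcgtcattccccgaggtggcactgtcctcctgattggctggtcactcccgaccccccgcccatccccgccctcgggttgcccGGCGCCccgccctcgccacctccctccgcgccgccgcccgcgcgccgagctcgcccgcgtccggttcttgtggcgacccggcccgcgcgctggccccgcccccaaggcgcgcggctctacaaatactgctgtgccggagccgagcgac
In these windows GGCGCC began 233 bases before the start of Tgfbr1, 231 before that of Id2 and 148 before that of Id4, and CAGAC began 119 bases before that of Bmp6. The window of Bmp4 held neither. That of the target Id3, not printed here, held no GGCGCC, but CAGAC 167 bases and GTCTG 68 bases before the start. RefSeq promoters were at hand for 30 of the 43 members (36 starts). GGCGCC was in 27.8% of the 36 member windows and in 9.59% of all 32851 windows of that length, and CAGAC or GTCTG was in 44.4% and 42.2%. The palindrome GTCTAGAC was in none of the member windows and in 0.167% of all. Member windows had a median of 22 CpG dinucleotides against 6 in all windows, so the shares of the GC-rich motif were not compared at equal base composition. Such a match describes letters and not a bound site.

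Open chromatin was compared between old and young cells at the ATAC-seq peaks that the deposited table assigns to the nearest gene. It lists 68 peaks for 23 members, and most held fewer reads in old cells. The old mean was lower at 63 of the 68, as at 85.9% of all 7849 listed peaks. In edgeR's quasi-likelihood test without scaling, at a false discovery rate (FDR) under 0.05, 31 member peaks fell and 3 rose, against 46.4% and 5.43% of all listed peaks. The 4 old libraries all lay below the 4 young at 24 member peaks and above them at 2, against 35.8% and 4.88% of all listed peaks. The median log2 fold change was −0.67 for members and −0.64 for all listed peaks, so the members moved about as far as the list as a whole.

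These calls depend on how libraries are scaled. With TMM scaling, which sets the middle of the listed peaks near 0, no member peak fell and 5 rose, against 0.701% and 13.9% of all listed peaks. TMM moved log2 fold changes by a median of 0.587, and the share of calls that were lower was 89.5% without scaling and 4.81% with it. The authors kept only peaks whose deposited −log10 p-value reached 2 and whose log2 ratio between these same groups reached 0.5 in size, so the FDRs rank listed peaks and are no independent test. Only 4 member peaks lay within 1 kb of an annotated start, 35 were intergenic and 25 in introns, and 24 lay over 100 kb from the start of the gene they are assigned to. A change in read count there is a change at that peak, and which gene it serves was not tested. Old replicate 4 held the lowest count at 27 of the 68 member peaks (39.7%), as at 39.4% of all listed peaks.

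**Figure D1:**
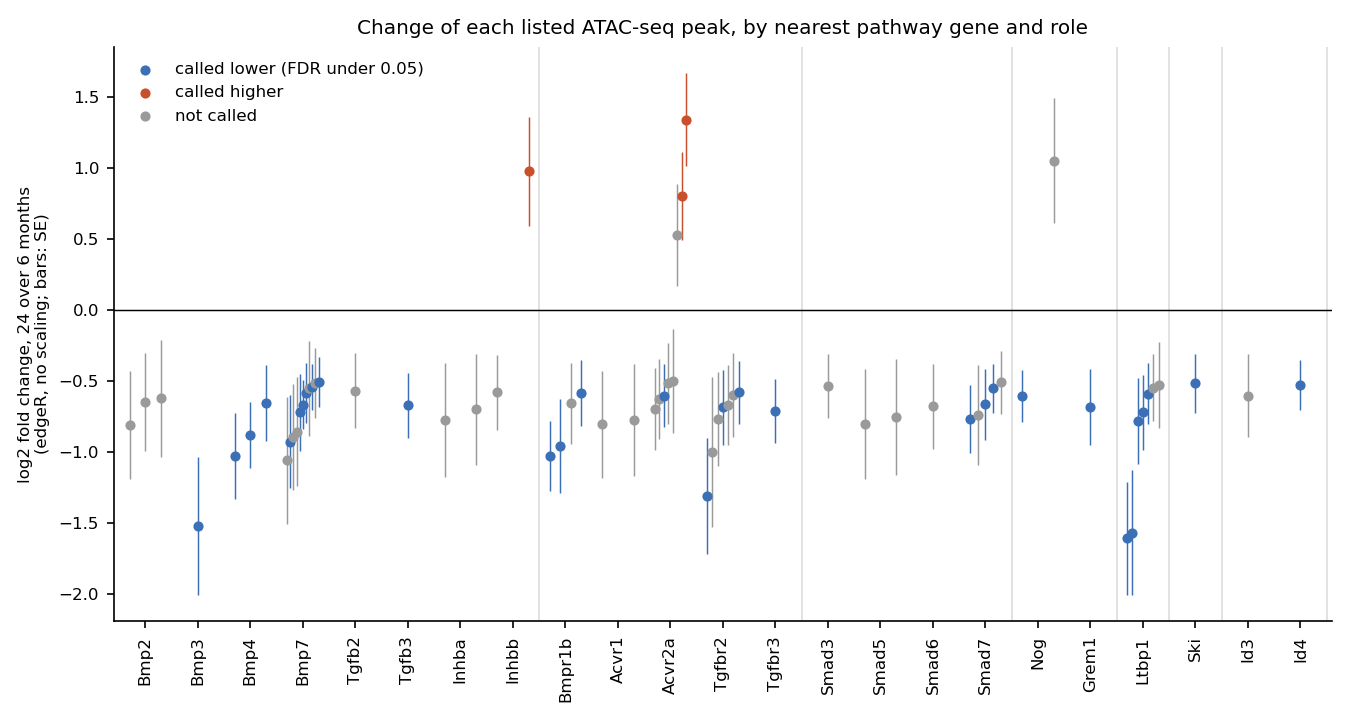
Log2 fold change (24 over 6 months, y axis) of each of the 68 listed ATAC-seq peaks, grouped along the x axis by nearest pathway gene and by role (grey lines part the roles), from edgeR without scaling. Points are peaks and bars are standard errors; 63 points lie below 0, and the 5 above it belong to Inhbb, Acvr2a and Nog.

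Among the ligands, 24 peaks were listed at 8 genes, of which 11 fell and 1 rose. Of all listed peaks 46.4% fell and 5.43% rose, and at 35.8% all old libraries lay below all young ones. The counts by role and gene here and below stand beside these shares. Bmp4, a BMP made in and around the follicle, had 3 peaks and all 3 fell. The peak 2.7 kb into Bmp4 (chr14:46387101-46387850) held 602, 602, 770 and 585 reads in the young libraries and 382, 238, 513 and 257 in the old. Its groups did not overlap, with a log2 fold change of −0.88 (SE 0.232, FDR 0.0158). The peak 7.7 kb upstream of Bmp4 (chr14:46398301-46398750) held 249, 170, 213 and 260 reads in young and 105, 115, 155 and 62 in old libraries, again without overlap (−1.03, SE 0.305, FDR 0.0225). The peak over the start of Bmp4 (chr14:46390451-46391050), which covers the promoter printed above, held 428, 306, 582 and 235 reads in young and 245, 202, 275 and 263 in old libraries. There young replicate 4 lay among the old libraries (−0.66, SE 0.267, FDR 0.0473), and the call was lost in 6 of the 8 fits that left out 1 library, all but those without young replicate 2 and young replicate 4. Without young replicate 3 the Bmp4 start peak had a log2 fold change of −0.39 and an FDR of 0.182. This start peak, the distal Bmp4 peak and those of Bmp3, Tgfbr3, Smad3 and the Bmp7 start were picked for display after their values were seen.

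Bmp3, a ligand that opposes other BMPs, had 1 listed peak, 9.9 kb upstream (chr5:98844351-98844500). Its young libraries held 97, 29, 65 and 37 reads and its old libraries 8, 33, 19 and 19, so the groups overlapped through young replicate 2 and old replicate 2. The peak fell by 1.52 on the log2 scale (SE 0.487, FDR 0.0271), and the call was lost without young replicate 1 (FDR 0.0678), young replicate 3 (0.0523) or old replicate 3 (0.0542). Bmp7, a BMP expressed in the follicle, had 11 peaks, the most of any member, of which 6 fell, against 46.4% of all listed peaks. The one downstream of the gene, 125.8 kb from its start (chr2:172813351-172814500), held 983, 935, 697 and 1074 reads in young and 619, 636, 519 and 547 in old libraries. No old library reached a young one there (−0.67, SE 0.174, FDR 0.0153). The peak at the Bmp7 start (chr2:172938651-172939800) held 733, 788, 659 and 833 reads in young and 604, 508, 422 and 583 in old libraries, also without overlap. It fell by 0.51 (SE 0.178, FDR 0.0324), a call lost without young replicate 2 (0.0559), young replicate 4 (0.0609), old replicate 2 (0.056) or old replicate 3 (0.0777). With TMM scaling the Bmp7 start peak was 0.0916 higher in old cells.

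Inhbb, the activin B subunit gene, had the only ligand peak with more reads in old cells, 37.9 kb upstream (chr1:119460151-119460400). It held 55, 27, 48 and 70 reads in young and 84, 144, 88 and 78 in old libraries. All old libraries lay above all young ones at the Inhbb peak (0.98, SE 0.382, FDR 0.043, and 1.57 with TMM, FDR 0.00389). The unscaled call at Inhbb was lost in 5 of the 8 fits that left out 1 library, those without young replicates 1, 2 or 3 or old replicates 2 or 3, with an FDR of up to 0.11. The other Inhbb peak had a lower old mean and was not called (−0.58, FDR 0.0609). The 3 peaks of Bmp2, the 2 of Inhba and the 1 of Tgfb2 had lower old means with no call. The Tgfb3 peak, in an intron 50.7 kb from the start, fell (−0.67, FDR 0.0302).

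Among the receptors, 22 peaks were listed at 5 genes, of which 8 fell and 2 rose, against 46.4% and 5.43% of all listed peaks. Bmpr1b, a type I BMP receptor gene, had a peak over its annotated start (chr3:142169001-142169600), with 424, 302, 400 and 526 reads in young and 243, 205, 208 and 153 in old libraries. The groups did not overlap, and the log2 fold change was −1.03 (SE 0.245, FDR 0.0119). Of the other 3 Bmpr1b peaks, all in intron 11, 2 fell. Tgfbr3, which encodes the co-receptor betaglycan, had 1 peak, in intron 14 (chr5:107195401-107196450), with 648, 825, 629 and 592 reads in young and 630, 326, 401 and 287 in old libraries. Old replicate 1 lay among the young libraries at Tgfbr3 (−0.71, SE 0.227, FDR 0.027). The Tgfbr3 call was lost without young replicate 2 (FDR 0.0569) or old replicates 2 (0.0543), 3 (0.055) or 4 (0.0552). Tgfbr2, the type II TGF-beta receptor gene, had 7 peaks, all with lower old means, and 3 fell. The 2 peaks of Acvr1, a type I receptor gene, were not called.

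Acvr2a, a type II receptor gene for activins and BMPs, held 3 of the 5 member peaks with more reads in old cells. All 8 of its listed peaks were intergenic, between 159.3 kb and 1124.2 kb upstream. The peak 480.9 kb upstream (chr2:48332901-48333250) held 68, 80, 42 and 55 reads in young and 176, 169, 132 and 143 in old libraries. The groups lay well apart (1.34, SE 0.328, FDR 0.013, and 1.92 with TMM, FDR 0.000345), and the call held without any 1 library. The peak 631.1 kb upstream (chr2:48182501-48183050) held 277, 136, 242 and 109 reads in young and 398, 438, 280 and 218 in old libraries, with overlap through old replicate 4. It rose by 0.80 (SE 0.309, FDR 0.0412), a call lost in 6 of the 8 fits that left out 1 library, all but those without young replicate 1 and old replicate 4, with an FDR of up to 0.0954. The peak 159.3 kb upstream (chr2:48654351-48654800) held 235, 49, 254 and 282 reads in young and 252, 296, 257 and 378 in old libraries. Its groups overlapped, and it was not called without scaling (0.53, FDR 0.16) but was with TMM (1.16, FDR 0.0234) and with library sizes from column sums (1.08, FDR 0.041). Of the other 5 Acvr2a peaks, all with lower old means, 1 fell, 315.6 kb upstream (−0.60, FDR 0.0358).

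**Figure D2:**
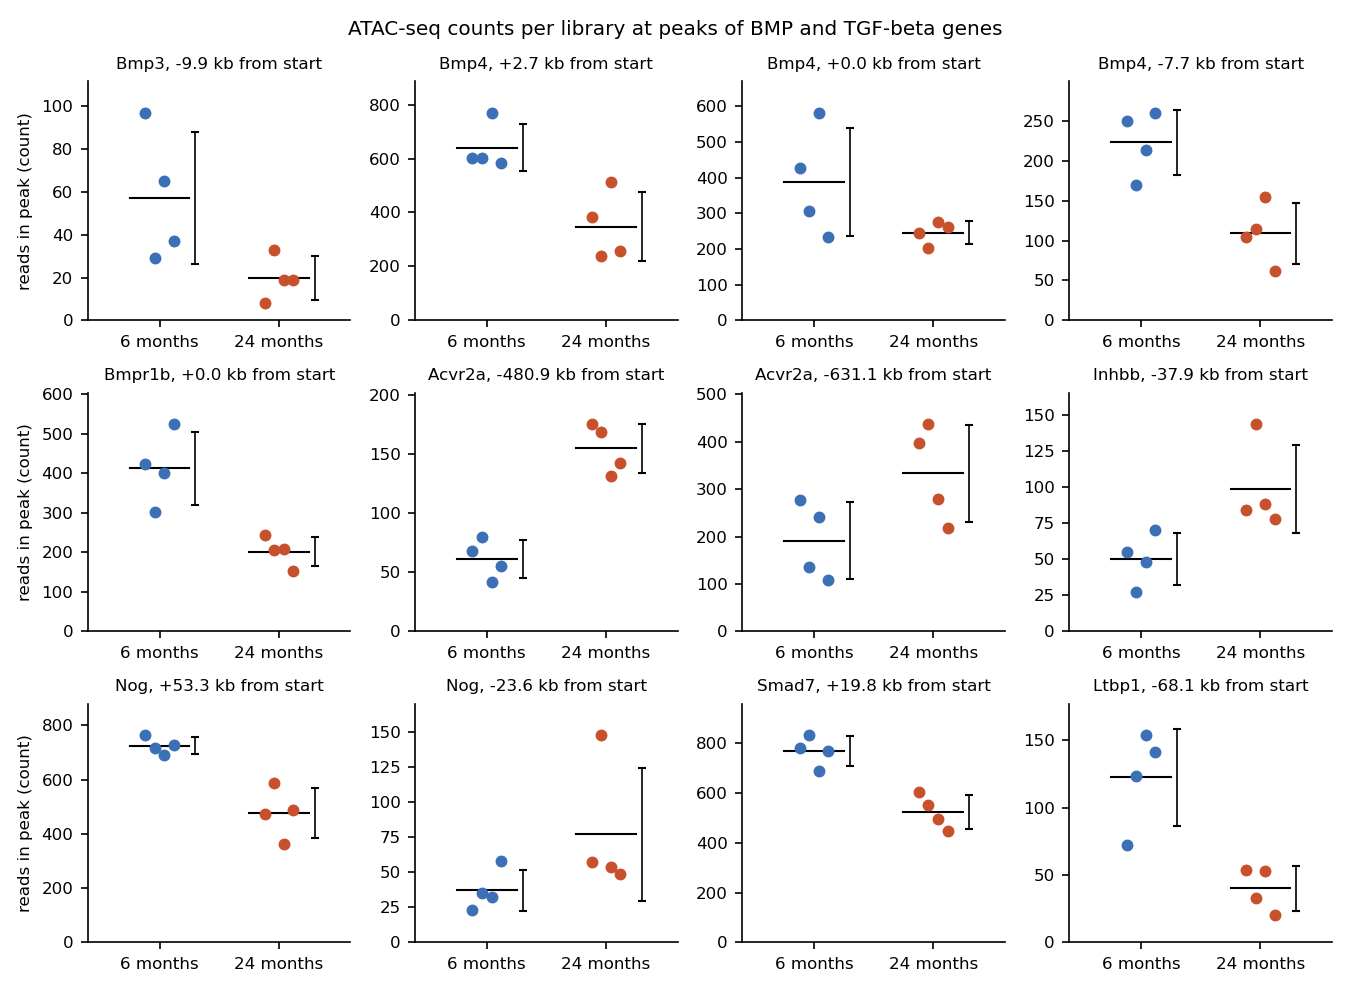
ATAC-seq reads per library (count, y axis) at 12 peaks of Bmp3, Bmp4, Bmpr1b, Acvr2a, Inhbb, Nog, Smad7 and Ltbp1 in 6 month and 24 month cells. Points are libraries, lines the means of 4 and bars ± 1 SD; at the Acvr2a peak 480.9 kb upstream the old libraries reach from 132 to 176 and the young from 42 to 80, while at the Bmpr1b start the order is the opposite.

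Among the Smads, 9 peaks were listed at 4 genes, all with lower old means, and 3 fell, all of them at Smad7. Of all listed peaks 85.9% had a lower old mean and 46.4% fell. Smad7, an inhibitor of both branches, had 5 peaks within its own gene. The peak in intron 3 at chr18:75384651-75385400 held 444, 541, 346 and 488 reads in young and 222, 381, 240 and 223 in old libraries. Only old replicate 2 reached into the young range (−0.77, SE 0.239, FDR 0.0252), and the call was lost without young replicate 2 (0.0508) or old replicate 3 (0.0549). The next peak in intron 3 of Smad7, at chr18:75387201-75387950, held 781, 833, 686 and 769 reads in young and 603, 550, 495 and 445 in old libraries. Its groups did not overlap (−0.55, SE 0.172, FDR 0.0256), the call was lost without old replicate 3 (0.053), and with TMM the value was 0.0292. Smad3, a TGF-beta receptor Smad gene, had a peak at its start (chr9:63757001-63757850), with 377, 376, 358 and 336 reads in young and 258, 222, 311 and 206 in old libraries. The groups lay apart and the FDR just missed the threshold (−0.54, SE 0.227, FDR 0.0512), and with TMM the value was 0.0468. The peaks of Smad5 and Smad6 were not called.

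Among the antagonists, Nog, which encodes the BMP trap Noggin, had 2 peaks that went in opposite directions. The peak 53.3 kb from its start (chr11:89248551-89249250) held 766, 718, 692 and 728 reads in young and 474, 586, 362 and 489 in old libraries. There the groups lay apart (−0.60, SE 0.183, FDR 0.0238), with the call lost without old replicate 3 (0.058). The peak 23.6 kb upstream of Nog (chr11:89326151-89326350) held 23, 35, 32 and 58 reads in young and 57, 148, 54 and 49 in old libraries. Its higher old mean came mostly from old replicate 2 (1.05, SE 0.44, FDR 0.0502), and the value without that library was 0.53 (FDR 0.241). With TMM it was called (1.64, FDR 0.00697), and without scaling it was called when young replicate 4 (FDR 0.0407) or old replicate 4 (0.0485) was left out. Grem1, another secreted BMP antagonist, had 1 peak, 7.8 kb upstream (chr2:113766401-113766900), with 371, 347, 260 and 229 reads in young and 209, 233, 121 and 187 in old libraries. It fell with 1 crossing pair of libraries (−0.69, SE 0.268, FDR 0.0429), and the call was lost in 6 of the 8 fits that left out 1 library, all but those without young replicate 4 and old replicate 2, with an FDR of up to 0.105.

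In the matrix group all 7 listed peaks belonged to Ltbp1, whose product tethers latent TGF-beta to the matrix. Of these 5 fell, against 46.4% of all listed peaks. The peak in intron 3 (chr17:75110451-75110750) held 72, 123, 154 and 141 reads in young and 54, 33, 53 and 20 in old libraries. The peak in intron 2 (chr17:75047001-75047150) held 57, 32, 63 and 66 reads in young and 27, 22, 10 and 14 in old libraries. Neither overlapped, and they had the largest falls of any member peak, −1.61 (SE 0.396, FDR 0.013) and −1.57 (SE 0.439, FDR 0.0185). Both Ltbp1 calls held without any 1 library, and with TMM the values were −1.04 (FDR 0.0719) and −0.998 (FDR 0.171). Ski, a nuclear repressor of Smads, had 1 peak, in intron 6 (chr4:155178251-155178950), with 547, 485, 520 and 498 reads in young and 437, 333, 404 and 258 in old libraries. The groups lay apart at Ski (−0.52, SE 0.208, FDR 0.0457), but the call was lost in 7 of the 8 fits that left out 1 library, all but that without old replicate 1, with an FDR of up to 0.0995, and with TMM the value was 0.0557.

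Of the Id targets, Id4 and Id3 had 1 peak each, and Id1 and Id2 had none. The Id4 peak, 8.2 kb upstream (chr13:48252451-48253200), held 855, 1136, 1145 and 832 reads in young and 739, 618, 826 and 567 in old libraries. It fell without overlap (−0.53, SE 0.178, FDR 0.0297), a call lost without young replicate 2 (0.0617), young replicate 3 (0.0707), old replicate 2 (0.0567) or old replicate 4 (0.0591), and with TMM the value was 0.0511. The Id3 peak, 10.8 kb from the start (chr4:136154601-136154950), held 130, 203, 191 and 190 reads in young and 98, 134, 137 and 101 in old libraries. Young replicate 1 lay among the old libraries at Id3, and the peak was not called (−0.60, SE 0.289, FDR 0.0689).

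The Polycomb mark H3K27me3 asks which members lie in repressed or poised chromatin. Peaks assigned to members numbered 146, at 25 genes, in the authors' deposited table, of which 8 were lower in old cells and none higher at an FDR under 0.05, against 2.6% and 2.66% of all 67985 peaks. A promoter peak, one within 1 kb of an annotated start, was present for 7 members. Of these 7, the authors' deposited table has 3 lower (Bmp3, Bmp4 and Tgfbr3) and none higher, against 13.6% and 2.42% of the 4580 genes with such a peak. The median of the 7 members was −0.90 and that of all these genes −0.16, as log2 old minus young from the authors' deposited table. No Smad, Id, matrix or nuclear repressor member had an H3K27me3 promoter peak by this rule.

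Levels in this and the other ChIP-seq tables are the authors' log2 mean normalized reads in a peak, so they grow with its width and are compared between ages and not between genes. At Bmp4 a domain of 16.9 kb (chr14:46377099-46394037) spanned the whole promoter printed above and went from 10.95 in young to 10.14 in old cells in the authors' deposited table (−0.81, FDR 0.000896). At Bmp3 a domain of 6.4 kb (chr5:98851687-98858065) went from 9.04 to 7.91 (−1.13, FDR 0.000158), per the authors' deposited table. At Tgfbr3 a peak of 5.6 kb (chr5:107290228-107295805), whose nearest end lies 0.6 kb upstream of a start, went from 8.60 to 7.70 (−0.90, FDR 0.00255) in the authors' deposited table. Bmp3, Bmp4 and Tgfbr3 thus held less H3K27me3 at the promoter and fewer unscaled ATAC-seq reads at their listed peaks in old cells. Not all of these lay in the same place. The ATAC-seq peaks of Tgfbr3 (93.1 kb from its start) and Bmp3 (9.9 kb upstream) lay outside those H3K27me3 peaks. The Bmp4 peak 7.7 kb upstream lay in another H3K27me3 peak, not called in the authors' deposited table (−0.36, FDR 0.353). The other Bmp4 peaks lay within the called domain. A lower old mean was found at 85.9% of all listed ATAC-seq peaks. With TMM none of the ATAC-seq peaks of Bmp3, Bmp4 and Tgfbr3 was called. The TMM values were −0.941 at Bmp3, −0.152 at Tgfbr3, and −0.299 (2.7 kb in), −0.067 (start) and −0.449 (7.7 kb upstream) at Bmp4. Of all genes with a promoter peak in the authors' deposited table, 4.74% had a lower value than Bmp3, 7.84% than Tgfbr3 and 9.43% than Bmp4.

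The other 4 members with an H3K27me3 promoter peak were not called in the authors' deposited table. Chrd, which encodes the BMP antagonist chordin, went from 8.16 to 6.71 (−1.45, FDR 0.301) and Bmp6, a BMP ligand, from 7.24 to 5.91 (−1.34, FDR 0.685) in the authors' deposited table. Tgfb2 went from 8.05 to 7.75 (−0.31, FDR 0.678) and Bmpr1b from 9.06 to 8.78 (−0.28, FDR 0.377), per the authors' deposited table. The values of Chrd and Bmp6 are larger in size than those of the called members, but the deposited FDRs do not separate them from the spread between samples.

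Away from promoters, H3K27me3 at peaks assigned to members was mostly level between the ages. Per the authors' deposited table, a total of 130 member peaks lay beyond 3 kb of a start, with a median of −0.05, against 0.14 for all 54072 such peaks. Of the 5 called peaks that are no promoter peak, 1 lay 2.7 kb into Inhba, the activin A subunit gene (6.40 to 4.95, −1.45, FDR 0.0179), in the authors' deposited table. Smad6 had 2, at 124.8 kb and 120.9 kb from its start (−0.91, FDR 0.00944, and −1.19, FDR 0.02), in the authors' deposited table. Id2 had 1, at 173.4 kb upstream (9.51 to 8.92, −0.58, FDR 0.0121), in the authors' deposited table. Smad5 had 1 in the authors' deposited table, 17.4 kb from the start annotated there, which is not the RefSeq start (9.46 to 8.78, −0.68, FDR 0.00915). Over this peak the authors' deposited tables also hold an H3K4me3 peak that fell (9.17 to 7.72, −1.45, FDR 0.000425). Smad2, Smad3, Smad5 and Smad6 together had 58 distal H3K27me3 peaks assigned to them in the authors' deposited table, of which those 3 of Smad5 and Smad6 were called lower and none higher, where 871 and 1404 of all 54072 peaks beyond 3 kb were.

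**Figure D3:**
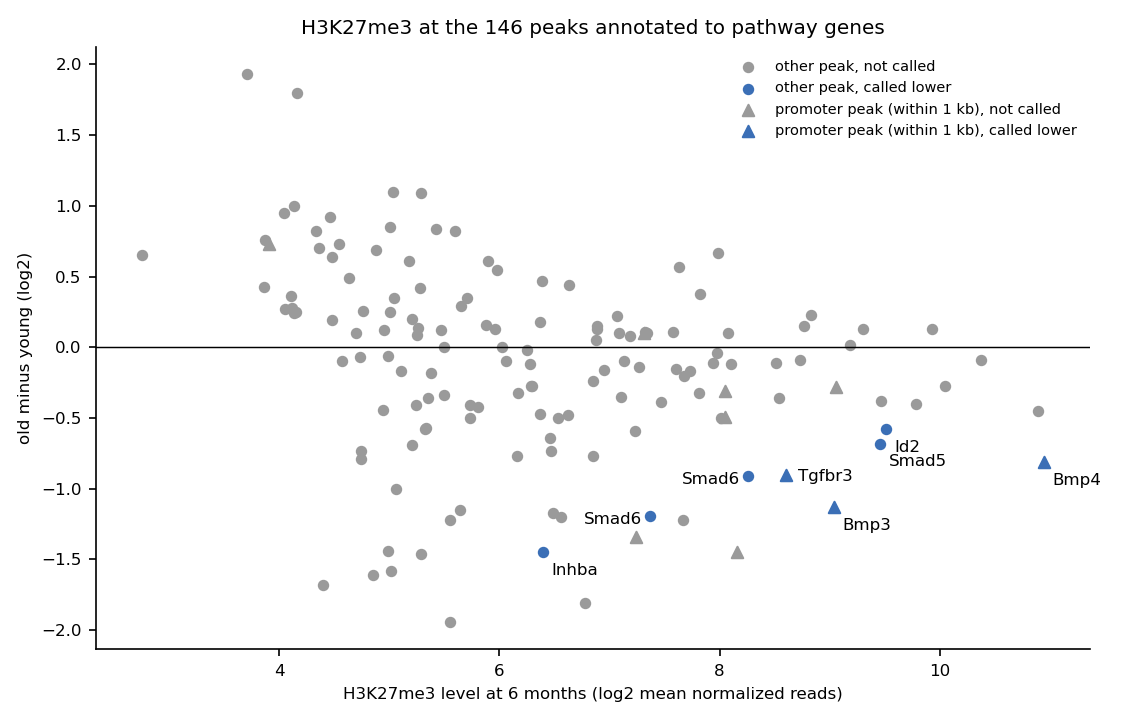
H3K27me3 at the 146 peaks assigned to pathway genes in the authors' deposited table: level at 6 months (log2 mean normalized reads, x axis) against old minus young (log2, y axis). Triangles are promoter peaks, circles other peaks, and blue marks the 8 peaks called lower, which are named; Bmp4 lies farthest right among these, at 10.95.

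H3K4me3 marks active and poised promoters. A promoter peak was present for 40 members in the authors' deposited table, and all 40 were lower in old cells and none higher, against 97.9% and 0.0259% of the 11585 genes with such a peak. Their median was −1.47 against −1.43 for all these genes, so the members fell about as far as promoters in general. The sources used here do not give the scaling of these libraries, and the fall was not tested under another scaling. Counting all 82 member peaks at 40 members, 64 were lower, against 79.1% of all 21390 peaks in the authors' deposited table. Relative to the median gene, 23 of the 40 members fell further and 14 less far in the authors' deposited table.

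The roles hardly differed in H3K4me3, with medians from −1.43 for the 10 receptors to −1.52 for the 2 nuclear repressors, from the authors' deposited table. Single members lay further apart. The largest fall was at Bmpr1b, the narrowest member promoter peak at 1.6 kb, from 8.21 to 5.89 in the authors' deposited table (−2.32, FDR 4.55e-06), and 1.65% of genes fell further. Bmp7 went from 11.77 to 9.91 (−1.86, FDR 1.69e-08) and Inhbb from 12.51 to 10.77 (−1.74, FDR 2.18e-07) in the authors' deposited table. The inhibitory Smads came next, with Smad7 (14.45 to 12.77, −1.67) and Smad6 (13.40 to 11.74, −1.66) in the authors' deposited table, followed by Smad5, a BMP receptor Smad (11.52 to 9.88, −1.64). At the other end stood the antagonist Grem1 (13.35 to 12.25, −1.10, FDR 0.00149), Acvr2a (12.31 to 11.14, −1.17), Smad1 (12.30 to 11.13, −1.18) and Acvr1b (13.05 to 11.87, −1.19) in the authors' deposited table. The 4 Id genes were close to each other and to the median, from −1.46 at Id4 to −1.51 at Id2, in the authors' deposited table. Whether these differences between members exceed the spread between samples was not tested, since the table holds group means only.

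At Smad7 the promoter peak of 16.0 kb was followed by 7 H3K4me3 peaks in its introns, all lower in the authors' deposited table. Their values ran from −1.52 to −4.57 in the authors' deposited table. The last was at the peak 9.5 kb from the start annotated there (7.06 to 2.49, FDR 0.000458). Its old level was the lowest of any member H3K4me3 peak, so the size of this fall rests on a low level from 2 samples. Of all 5278 H3K4me3 peaks beyond 3 kb of a start, 3287 were lower in the authors' deposited table. The Smad7 peak with the value of −4.57 overlaps the ATAC-seq peak with the largest fall at Smad7, given above. That ATAC-seq peak is listed at 17.3 kb because its distance is counted from another start. Bmp3 and Bmp4 had no H3K4me3 peak under their symbols. An H3K4me3 peak that the authors' deposited table assigns to a gene without a symbol (chr14:46385901-46390007) ends 662 bp downstream of the RefSeq start of Bmp4, and went from 10.03 to 8.76 (−1.27, FDR 4.49e-05). It covers the ATAC-seq peak 2.7 kb into Bmp4 and lies within the H3K27me3 domain of Bmp4.

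**Figure D4:**
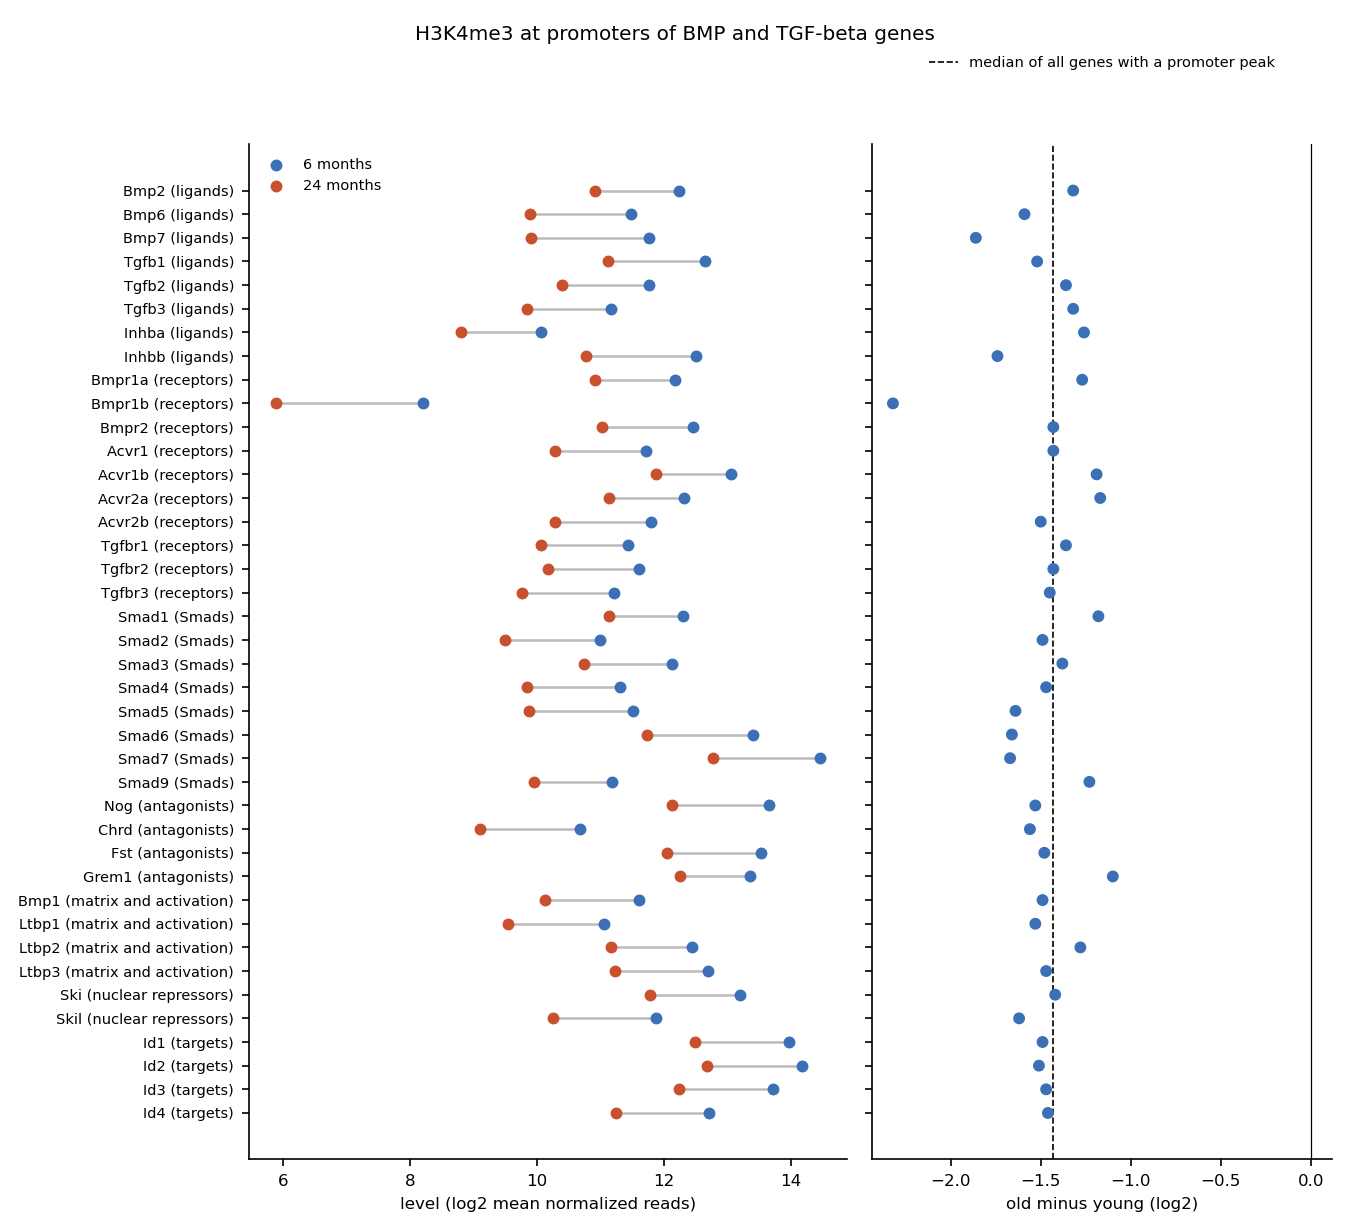
H3K4me3 at the promoters of 40 pathway genes in the authors' deposited table. Left, level in log2 mean normalized reads at 6 and 24 months; right, old minus young (log2), with a dashed line at the median of all genes, −1.43. All 40 lie below 0, from −2.32 at Bmpr1b to −1.10 at Grem1.

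Counting any overlap, both marks were found together at members about as often as at genes in general. An H3K4me3 promoter peak overlapped an H3K27me3 peak by at least 1 bp at 6 of the 40 members, against 15.4% of all genes with an H3K4me3 promoter peak. They were Bmp6, Bmpr1b, Chrd, Ltbp1, Tgfb2 and Tgfbr3. H3K27me3 covered 90.2% of the H3K4me3 peak of Bmpr1b, 47.6% of that of Tgfb2 and 4.89% of that of Ltbp1. Where the overlap had to reach 50% of the H3K4me3 peak, only Bmpr1b remained, against 8.07% of all genes. Bmp4 could not enter these counts, which go by gene symbol. The H3K4me3 peak near its start carries no symbol, but lies within the H3K27me3 domain of Bmp4, as given above. Bmpr1b, where H3K27me3 covered the largest share of the H3K4me3 peak among these 6, also had the largest H3K4me3 fall of the 40 members in the authors' deposited table. An ATAC-seq peak over the same start of Bmpr1b fell, whereas its H3K27me3 was not called.

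Pol2 at the promoter was present for 12 members in the authors' deposited table. Of these, 10 were lower in old cells and none higher, against 87.6% and 0.0% of the 3168 genes with a Pol2 promoter peak. Counting all 19 member peaks at 13 members, 10 were lower, against 52.9% of all 6789 peaks in the authors' deposited table. The median of the 12 was −2.135 and that of all genes −2.38 in the authors' deposited table, so the members lie near the general fall. Most members, among them all 4 matrix genes and every ligand but Bmp6, had no Pol2 promoter peak there.

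The largest Pol2 falls were at Bmp6 and at Tgfbr1, the type I TGF-beta receptor gene. Bmp6 went from 7.96 to 2.85 (−5.12, FDR 0.0138) and Tgfbr1 from 8.19 to 3.37 (−4.82, FDR 0.0144) in the authors' deposited table, and 2.68% and 3.6% of genes fell further. These were the narrowest member promoter peaks, at 1.1 kb each, and 2.85 was the lowest old level of any member Pol2 peak. The sizes of both falls thus rest on low old levels from 2 samples. The Pol2 peak with the highest mean level assigned to Bmp6 lay 32.8 kb upstream and was not called in the authors' deposited table (8.84 to 7.30, −1.54, FDR 0.0681). Of the BMP receptor Smads, Smad1 went from 10.53 to 7.85 (−2.68, FDR 0.00188) and Smad5 from 9.81 to 7.49 (−2.32, FDR 0.00528), in the authors' deposited table. Bmpr2, the type II BMP receptor gene, went from 9.63 to 7.14 (−2.48, FDR 0.00317) and Ski from 7.95 to 5.76 (−2.19, FDR 0.0232) in the authors' deposited table. The antagonists Grem1 (10.33 to 8.49, −1.84, FDR 0.0235) and Fst, which encodes the activin trap follistatin (11.04 to 9.24, −1.80, FDR 0.0152), fell less far than the median gene in the authors' deposited table.

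Of the 4 Id targets, 2 were called in Pol2. Id4 went from 10.46 to 8.38 (−2.08, FDR 0.00648) and Id2 from 12.32 to 10.48 (−1.84, FDR 0.0156) in the authors' deposited table, both called lower. Id3 went from 12.86 to 11.51 (−1.35, FDR 0.102) and Id1 from 12.11 to 10.79 (−1.32, FDR 0.0832) in the authors' deposited table and were not called. Of all genes with a Pol2 promoter peak, 93.3% fell further than Id3 and 93.8% further than Id1 in the authors' deposited table. The difference between the Id genes was not tested. All 4 had H3K4me3 falls close to the median gene, as given above.

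**Figure D5:**
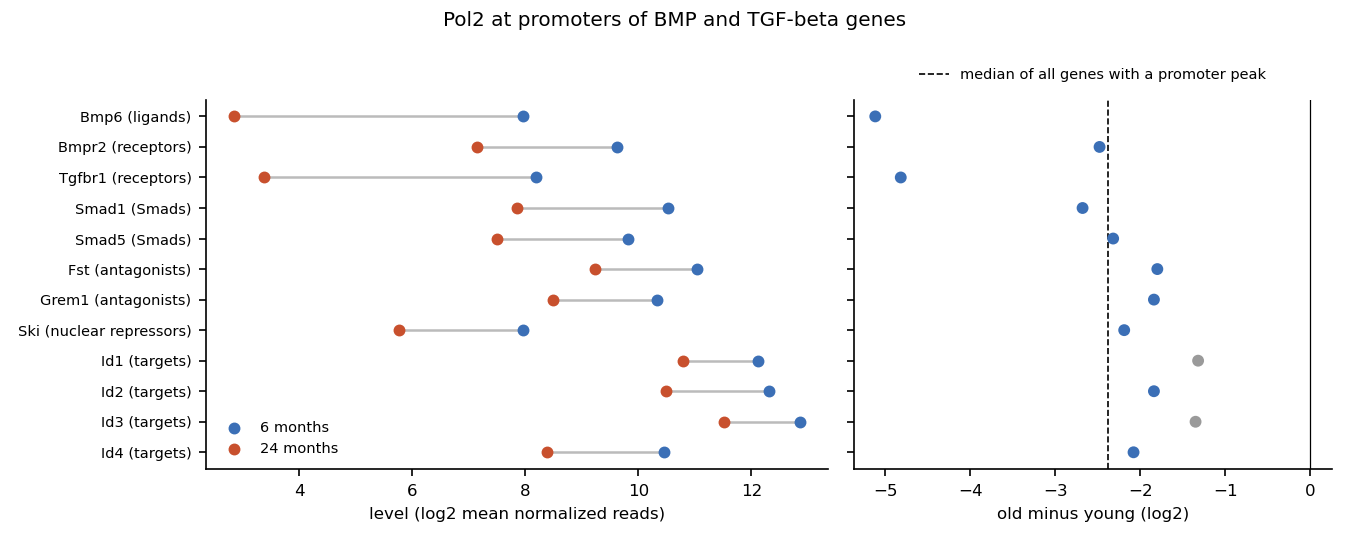
Pol2 at the promoters of 12 pathway genes in the authors' deposited table. Left, level in log2 mean normalized reads at 6 and 24 months; right, old minus young (log2), blue where called lower and grey where not, with a dashed line at the median of all genes, −2.38. Bmp6 and Tgfbr1 lie far to the left of that line, and Id1 and Id3 far to its right.

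RNA levels could be followed for 1 member. The authors' deposited table is limited to 597 genes whose adjusted p is at most 0.1, of which 38.0% were called higher and 18.8% lower in old cells. Skil, which encodes the Smad repressor SnoN and is itself induced by TGF-beta, was listed as higher by 0.38 on the log2 scale (deposited SE 0.115, adjusted p = 0.0462) in the authors' deposited table, at a mean normalized count of 6540. Its H3K4me3 promoter peak went from 11.88 to 10.26 in the authors' deposited table (−1.62, FDR 5.6e-07), as most promoters did. The other 42 members are not in that table and their RNA was not analysed here. Whether each had an adjusted p above 0.1 or was not tested cannot be told. Lower H3K4me3 or Pol2, where called at their promoters, thus cannot be set beside their transcript levels.

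A wider list of 69 further genes of the pathway was counted in the same way. Of them 24 had a promoter peak in the authors' deposited H3K27me3 table, 5 were lower and none higher, against 13.6% and 2.42% of all genes. The largest falls among those 5 were at the ligands Gdf7 (−0.71, FDR 4.59e-06) and Gdf6 (−0.54, FDR 0.000887), the matrix gene Fbn2 (−0.70, FDR 0.0338) and the homeobox gene Msx1 (−0.53, FDR 0.000451), in the authors' deposited table. For H3K4me3 42 of 43 were lower, against 97.9% of all genes, and for Pol2 5 of 6, against 87.6%, among them Bambi, a pseudoreceptor (−2.99, FDR 0.00066), and Rgmb, a BMP co-receptor (−2.70, FDR 0.0058), all from the authors' deposited tables. At ATAC-seq 28 peaks were assigned to them, of which 14 fell and 2 rose, against 46.4% and 5.43% of all listed peaks. The peak with the smallest FDR lay in an intron (distance to the start −45.8 kb) and was assigned to Tgif1, a repressor of Smad2 and Smad3. It held 853, 1094, 849 and 868 reads in young and 501, 444, 649 and 533 in old libraries (−0.78, FDR 0.00958, and −0.186 with TMM, not called). The peaks that rose were assigned to Fbn2 (1.18, FDR 0.0308) and to Msx2, a BMP target in many tissues (0.61, FDR 0.0459). In RNA only Rgma, a BMP co-receptor gene, was listed, as lower (−0.49, deposited SE 0.147, adjusted p = 0.0461), in the authors' deposited table.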

How the data were processed

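Groups and replicate numbers came from the sample labels (28 samples). The submitters' processing notes name STAR 2.5.2b (build GRCm38.p5), featureCounts and DESeq2 1.22.2 for RNA, BWA 0.7.12 (build GRCm38) for ATAC-seq, and BWA 0.7.15, MACS2 2.2.7.1 and DiffBind 2.14.0 for ChIP-seq. Neither the ATAC-seq peak caller and test nor the ChIP-seq normalization is given in the sources used here. Per the file headers, the deposited ATAC-seq values are whole-number counts by peak and library, a −log10 p-value, whose base was taken from its lowest value, and a log2 ratio of young to old, which equals that of the unscaled means. The deposited RNA table holds the mean normalized signal, log2 fold changes and standard errors, a test score and p-values, per the file headers. The deposited ChIP-seq tables hold log2 mean normalized reads by age, their difference, p-values and FDRs, per the file headers, and no value per sample. The authors' differences were turned to old minus young.

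Counts were compared with edgeR 4.0.16 in R 4.3.3 (quasi-likelihood test, equal library sizes, two-sided, Benjamini-Hochberg over all 7849 listed peaks). The filter on low counts removed 0 peaks, and the test was tried on simulated counts. TMM and other settings were alternatives. For ChIP-seq and RNA the authors' FDR or adjusted p was read at 0.05, with 1 promoter peak per gene, that with the highest mean level. Peaks are tied to genes by the authors' nearest-gene annotation on GRCm38. Distances follow that annotation, which for some genes counts from another start in ATAC-seq than in ChIP-seq. Promoter sequences are RefSeq's, on GRCm38.p6. P-values set a difference between the groups against the spread between these samples. Other software was DESeq2 1.42.0, Python 3.11.15, pandas 2.3.3, numpy 2.4.6 and matplotlib 3.10.9.

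The members, the lists and the tests were chosen with earlier results of these data known. Counts in every library are given for the 2 peaks of each role with the smallest unadjusted p, for every member peak with more reads in old cells, and for 6 further peaks. Other pathway genes are named where called, at most 4 per direction and table.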

Additional observations from a re-analysis of the deposited data

Results flagged for a closer look

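In 4 of the 46 groups of 4 libraries at the peaks given in full, 1 library lay far from the other 3 (a gap above Dixon's critical value for 4 samples). Chance alone gives about 1 in 20 such groups. Old replicate 2 was the high library in 3 of them: 381 reads at the Smad7 peak in intron 3, 148 at the Nog peak 23.6 kb upstream, and 144 at the Inhbb peak 37.9 kb upstream. Young replicate 3 was high with 770 reads at the Bmp4 peak 2.7 kb into the gene. Over all 68 member peaks, 5 of 136 groups had such a library. Without old replicate 2 the Inhbb value was 0.736 (FDR 0.11) and the Nog value 0.526 (FDR 0.241), and without young replicate 3 the Bmp4 call held. Why these libraries differ was not tested.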

How the results depend on the processing

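The unscaled ATAC-seq counts of 31 member peaks lower and 3 higher were 0 and 5 with TMM (0.701% and 13.9% of all listed peaks), 0 and 5 with library sizes from column sums (1.02% and 13.6%), 1 and 4 with DESeq2's own size factors (1.04% and 13.8%), 44 and 4 with DESeq2 and size factors of 1 (58.5% and 7.73%), and 0 and 0 at an FDR under 0.01, where 155 and 23 of all listed peaks were called and 54 of the 68 member peaks had an unadjusted p under 0.05. Leaving out 1 library gave between 9 and 28 lower and between 1 and 4 higher; lower counts were 9 without old replicate 3, 15 without young replicate 3, 16 without old replicate 4 and 18 without young replicate 4, while between 18% and 26.7% of all peaks were called lower. Of the 19 called peaks given in full, 7 kept the call in all 8 such fits. Among the 23 peaks given in full, old values turned higher with TMM at the Bmp7 start (0.0916), Ski (0.0557), Id4 (0.0511), the Smad3 start (0.0468) and the Smad7 peak at 19.8 kb (0.0292), and with DESeq2's own size factors at the same peaks (0.0812, 0.0457, 0.0425, 0.0373 and 0.0189); with column sums, of these 23, the Bmp7 start did (0.02). The replicate numbers do not pair the samples (same-number correlations −0.0266, −0.109, 0.0354 and −0.186), and with the replicate block 5 member peaks were lower and 1 higher (9.62% and 1.16% of all listed peaks). H3K27me3 had 5 members lower when any peak of the gene could stand for it (8.19% of genes). Of the members called in H3K4me3, 26 lay below the median promoter peak and 13 above it, and in Pol2 5 and 5. The FDRs behind these calls test a difference from 0, so no member was tested against that median. Pol2 had 4 lower at an FDR under 0.01 (58.2% of genes). With an overlap of at least 50% of the H3K4me3 peak, 1 member carried both marks under its symbol. Of 236 promoter values of members under these ChIP-seq settings 228 kept their call, 7 lost it and 1 gained it. These settings moved the FDR threshold or the choice of peak, and none changed the ChIP-seq scaling. The FDRs of member promoters in H3K4me3 were at most 0.00149, so those calls could not change with the threshold. No paired analysis was possible for ChIP-seq and RNA because the tables hold no values per sample. The cause of these changes was not tested.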
